A study of Mus musculus with 15 samples.

Results

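The crosslink sites described here lay in the last 100 nt of a protein-coding 3′UTR, next to the annotated end at which the mRNA is cleaved and polyadenylated, and are called end sites. A site was counted when it fell in a 3′UTR of at least 300 spliced nt on its own strand (mm10, GENCODE M21), taking the transcript whose 3′UTR was longest at that position. The rule found 11656 end sites among the 162273 crosslink sites of the 6 lists. Another 60601 sites lay elsewhere in 3′UTRs of this length. The end sites occupied 10256 distinct positions in 1420 genes. All placements are annotated ones, and which 3′ end an mRNA used in these cells was not measured. In each list at most 2.04% of the end sites lay more than 100 nt from the end of another annotated 3′UTR of the same gene.

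Individual-nucleotide resolution crosslinking and immunoprecipitation (iCLIP) records the nucleotide at which ultraviolet light joined a protein to RNA, as the base before the start of a cDNA. The cells were C57BL/6 bone marrow-derived macrophages without endogenous tristetraprolin (TTP, encoded by Zfp36), immortalised with human c-Myc and mutant Ras, that carried either GFP–TTP or GFP–TTP-AA, whose serines targeted by the kinase MK2 were changed to alanine, under a doxycycline-inducible promoter. The inserted gene held the coding sequence only. All 6 groups, controls included, lacked endogenous TTP and received doxycycline for 6 h, and were harvested unstimulated (0 h) or 1 h or 4 h after addition of lipopolysaccharide (LPS), a bacterial membrane component. The libraries of a group were summed by the authors into 1 list, of 2, 4 and 2 libraries for GFP–TTP and of 2, 3 and 2 libraries for GFP–TTP-AA at 0, 1 and 4 h. Values per library were not analysed here, so no spread between replicates could be set beside any difference. All intervals are 95% and cover counting error only. Sites of the same gene are not independent of each other, so intervals over sites are too narrow, and values over genes are given where they differ in direction or call.

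TTP is a zinc finger protein that binds AU-rich elements, of which AUUUA is the core and UUAUUUAUU the full nonamer, in the 3′UTRs of short-lived mRNAs such as those of cytokines. It recruits the CCR4–NOT deadenylase, which shortens the poly(A) tail, and phosphorylation by MK2 lowers its affinity for RNA and for the deadenylase. The poly(A) signal, AAUAAA or its variant AUUAAA, lies shortly upstream of the cleavage site and is bound by the cleavage and polyadenylation specificity factor while the mRNA is made in the nucleus.

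The sequences below surround the end site with most unique cDNA counts of the 5 leading genes of each 1 h list, and show which letters lay at the strongest end sites. The site is base 16 of each 30-nt RNA sequence, written 5′ to 3′. Capitals mark the AUUUA pentamer and both poly(A) signal hexamers. Coordinates are GRCm38 (mm10), and each sequence lies in the exonic 3′UTR of the named gene, on the strand given.
Cxcl2, TTP-AA 1 h, chr5:90905877-90905906, plus strand: gaaguggacacAUUUAUUUAuucauguauu
Cxcl2, TTP 1 h, chr5:90905844-90905873, plus strand: uagcaauuguuuugucaugccuuuucgugu
Nfkbia, TTP-AA 1 h, chr12:55489444-55489473, minus strand: auuuuguugguaauuauuuugguacuucua
Cxcl10, TTP-AA 1 h, chr5:92346849-92346878, minus strand: guauguguaaauacuAUUUAaugaacgacu
Plau, TTP-AA 1 h, chr14:20843294-20843323, plus strand: uacuuaauAUUUAauaauuauguucugcua
Mdm2, TTP-AA 1 h, chr10:117688936-117688965, minus strand: ucuuaaauguuuAUUUAgaaauggcauuga
Nckap5l, TTP 1 h, chr15:99422093-99422122, minus strand: ccgcacugcgguuaAUUUAucuguuguuga
Ogdh, TTP 1 h, chr11:6356532-6356561, plus strand: ugggacacaccugAUUUAUUUAuuuugguu
The top sites of Mdm2 in the TTP and TTP-AA lists were adjacent nucleotides, 75 and 76 nt from the end, so the sequence is shown once. Those of Nfkbia lay 38 and 49 nt from the end, in the same stretch without AUUUA, and the TTP-AA site is shown. The Cxcl10 site lay 59 nt from the end of the longest 3′UTR, which stops upstream of another annotated end of the gene. The TTP sites of Mdm2, Nfkbia and Ogdh rested on 3 cDNAs each. The top sites of Cxcl2, in contrast, differed between the lists. The TTP-AA site, with 41 cDNAs, lay 47 nt from the end in a pair of overlapping AUUUA pentamers, whereas the TTP site, with 9 cDNAs, lay 80 nt from the end in a stretch without one.

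Next, the share of end sites among the sites of 3′UTRs of at least 300 nt was compared between the lists. The share was highest in the TTP-AA lists at 0 h and 4 h of LPS and lowest in the TTP lists at 1 h and 4 h. Without LPS, 611 of 3151 TTP sites (19.4%, Wilson interval 18.1 to 20.8) and 1158 of 3982 TTP-AA sites (29.1%, 27.7 to 30.5) were end sites. After 1 h of LPS, the values were 685 of 6365 TTP sites (10.8%, 10.0 to 11.6) and 8991 of 57616 TTP-AA sites (15.6%, 15.3 to 15.9). After 4 h, 47 of 504 TTP sites (9.33%, 7.09 to 12.2) and 164 of 639 TTP-AA sites (25.7%, 22.4 to 29.2) were end sites. The TTP-AA list thus held the larger share at each time point, and the differences are given with their intervals below.

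**Figure D1:**
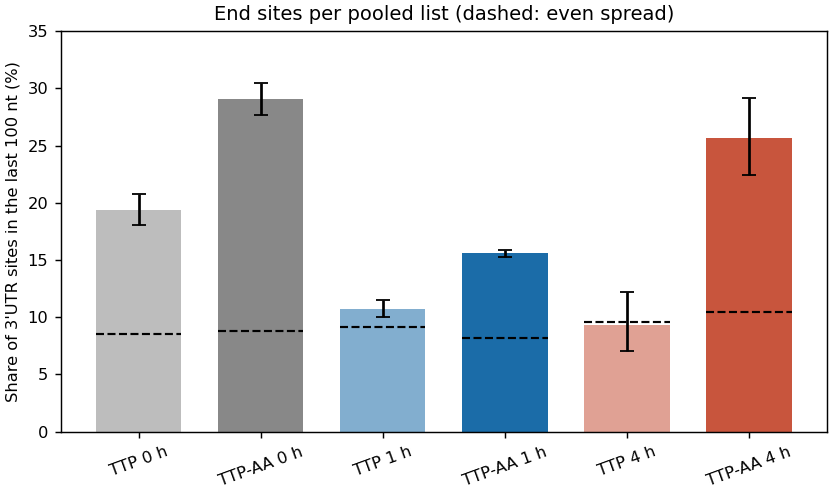
Share of crosslink sites of 3′UTRs of at least 300 nt that lay in the last 100 nt (%, y axis), in each of the 6 pooled lists (x axis); bars are the shares, error bars Wilson 95% intervals, and dashed lines the share that an even spread over the same 3′UTRs would give. The TTP-AA bars stand at 29.1%, 15.6% and 25.7% and the TTP bars at 19.4%, 10.8% and 9.33%.

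If the sites of each list had been spread evenly along the 3′UTRs that held them, between 8.19% and 10.5% of them would have been end sites. Relative to this even spread, TTP end sites were 2.28 times as frequent at 0 h, 1.17 times at 1 h and 0.976 times at 4 h. TTP-AA end sites were 3.31, 1.91 and 2.46 times as frequent. For TTP the interval of the share lay above the even 9.18% at 1 h and included the even 9.55% at 4 h. When sites per nt were instead summed over all bound 3′UTRs, in which long 3′UTRs weigh more, the density in the last 100 nt was 2.59 times that in the rest (2.39 to 2.80) for TTP at 1 h and 2.43 times (1.80 to 3.28) at 4 h. The TTP-AA excess was also present in long 3′UTRs. In 3′UTRs of at least 2000 nt, where an even spread would put 3.09% of the TTP-AA sites at 1 h in the last 100 nt, 8.14% (7.80 to 8.49) of 24437 sites lay there. In the TTP list at 1 h, the share in 3′UTRs of this length was 3.72% (3.02 to 4.57) against an even 3.12%. In 3′UTRs of 300 to 499 nt, the TTP share at 1 h was 23.1% (19.99 to 26.5), with the even share of 25.2% inside the interval, and the TTP-AA share was 36.5% (35.2 to 37.9). Between these classes the TTP share at 1 h exceeded the even one, with 17.6% (15.8 to 19.6) against 13.97% in 3′UTRs of 500 to 999 nt and 9.31% (8.05 to 10.7) against 6.97% in those of 1000 to 1999 nt. At 4 h, 22.8% (16.9 to 29.9) of the TTP sites in 3′UTRs of 500 to 999 nt were end sites, against an even 13.9%. In the other classes the TTP share at 4 h was below the even one. It was 10.6% (4.63 to 22.6) against 27.1% in 3′UTRs of 300 to 499 nt. In those of 1000 to 1999 nt it was 3.53% (1.21 to 9.87) against 7.16%, and in those of at least 2000 nt 1.40% (0.478 to 4.04) against 3.45%.

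At least 1 end site was found in 166 of 698 genes bound in such a 3′UTR (23.8%) in the TTP list and in 267 of 821 (32.5%) in the TTP-AA list at 0 h. At 1 h the counts were 172 of 1225 (14%) and 1326 of 4083 (32.5%), and at 4 h they were 17 of 123 (13.8%) and 51 of 179 (28.5%). In many of these genes the end held all the crosslinks of the 3′UTR. This was the case in 216 of the 267 genes of the TTP-AA list at 0 h (80.9%), in 46 of 51 at 4 h (90.2%), and in 426 of 1326 at 1 h (32.1%), the list with most cDNAs. With TTP it was the case in 126 of 166 genes (75.9%), 95 of 172 (55.2%) and 13 of 17 (76.5%) at 0, 1 and 4 h, so the share at 1 h was higher with TTP. The 1 h lists differed in depth, with 863 end cDNAs for TTP and 14366 for TTP-AA. Genes with at least 5 end cDNAs numbered 53, 40 and 5 with TTP and 116, 694 and 12 with TTP-AA at 0, 1 and 4 h. These shares were not matched for cDNAs per gene. End sites had 1.60 cDNAs on average in the TTP-AA list at 1 h, against 1.49 at the other 3′UTR sites, and 1.26 against 1.42 in the TTP list. Most end sites rested on 1 cDNA, between 74.2% and 85.1% of them in the 6 lists.

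The difference in end share between the mutant and the wild-type protein was 9.69 percentage points (Newcombe interval 7.71 to 11.7) in unstimulated cells. It was 4.84 points (4.01 to 5.64) after 1 h and 16.3 points (12.0 to 20.5) after 4 h of LPS. Each interval excluded 0, and the direction held when summed cDNAs, genes, the shortest annotated 3′UTR or sites with at least 2 cDNAs were used. The difference was smaller when the same genes were compared. Among the 307, 1052 and 25 genes with a site in both lists, it was 5.01 points (2.28 to 7.72) at 0 h, 3.08 (2.17 to 3.96) at 1 h and 14.2 (6.94 to 21.7) at 4 h. Among genes with at least 10 3′UTR cDNAs in both lists, the pooled end share was 17.3% with TTP and 17.5% with TTP-AA at 0 h, over 43 genes of which 27 had equal shares. At 1 h it was 9.18% and 15.4% over 142 genes, of which 57 were higher and 19 lower with TTP-AA, and at 4 h only 6 genes qualified, 2 higher and 1 lower. With Tnf and Gnb2 left out, the 4 h difference was 13.6 points (9.22 to 17.8).

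The comparison of 3′UTR zones put these shares in context. At 1 h, the TTP-AA list had 13.1 times as many end sites as the TTP list (12.1 to 14.2), 8.62 times as many sites in the middle of 3′UTRs (8.38 to 8.87) and 7.66 times as many in the first 100 nt after the stop codon (6.88 to 8.53). At 1 h the ratio was thus larger at the end than in either of the other zones. At 0 h the site ratios were 1.90 (1.72 to 2.09) at the end, 1.09 (1.03 to 1.15) in the middle and 1.47 (1.19 to 1.80) in the first 100 nt, and the cDNA ratio was higher in the first 100 nt (2.21, 1.89 to 2.59) than at the end (1.86, 1.70 to 2.02). At 4 h, the lists had nearly the same number of sites in the middle, 430 for TTP-AA and 446 for TTP, whereas the ratio was 3.49 (2.53 to 4.82) at the end and 4.09 (2.14 to 7.82) in the first 100 nt. The end and the start of the 3′UTR could not be told apart at this depth.

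Within the last 100 nt, crosslinks were not placed evenly. The last 20 nt were nearly empty, with 67 of 8991 end sites (0.745%) in the TTP-AA list at 1 h and 7 of 685 (1.02%) in the TTP list. Between 31 and 70 nt from the end lay 56.3% of the TTP-AA and 50.4% of the TTP end sites at 1 h, and 72.7% and 65.5% at 0 h. The median distance from the end at 1 h was 64 nt for TTP-AA and 69 nt for TTP. In 0 h cells it was 53 and 58 nt. Within genes that had end cDNAs in both lists, the medians of the proteins differed less. At 1 h the median change from TTP to TTP-AA was -0.5 nt over 151 genes, with 80 nearer to the end and 62 farther. At 0 h it was -1 nt over 86 genes, with 45 nearer and 35 farther. Past the annotated ends of the bound 3′UTRs, at most 43 sites per list were found in the following 100 nt. At the upstream edge of the window the 1 h lists showed no step. In the TTP-AA list at 1 h, 1060 sites with 1606 cDNAs lay 91 to 100 nt from the end and 931 sites with 1595 cDNAs in the next 10 nt outside the window. In the TTP list the counts were 92 sites with 118 cDNAs and 111 sites with 164 cDNAs. At the length limit, 517 of the 1088 TTP-AA sites at 1 h in 3′UTRs less than 50 nt longer than the limit were in the last 100 nt, and 522 of 1228 in 3′UTRs up to 50 nt shorter than it, which the rule left out.

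**Figure D2:**
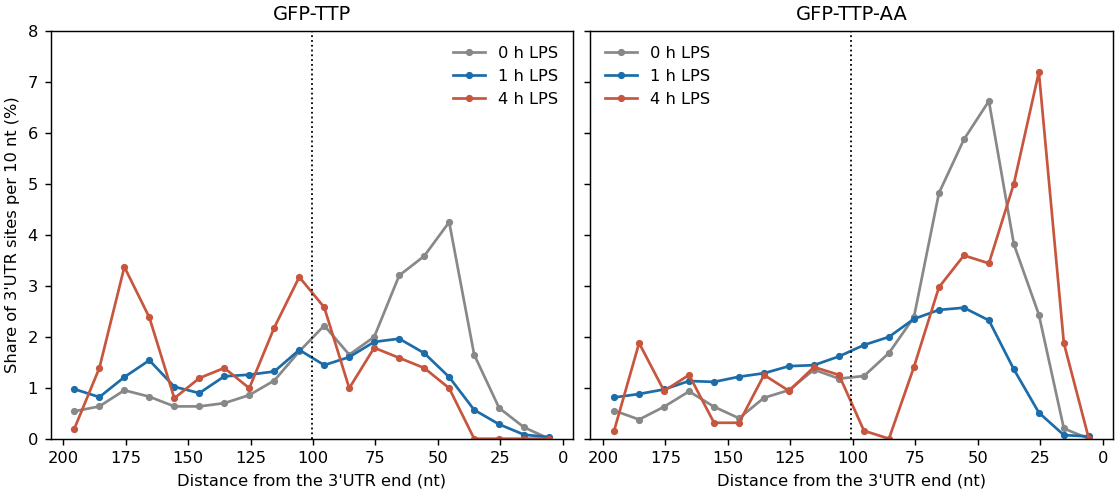
Share of the crosslink sites of 3′UTRs of at least 300 nt per 10-nt interval (%, y axis) by distance from the annotated 3′UTR end (nt, x axis, the end at the right), for GFP–TTP (left) and GFP–TTP-AA (right) at 0, 1 and 4 h of LPS; the dotted line marks 100 nt. The TTP-AA 0 h line peaks 41 to 50 nt from the end and the TTP-AA 4 h line 21 to 30 nt from it, while the last 10 nt are empty or nearly so in all lists.

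The TTP-AA list at 4 h differed from the others in position. Its end sites had a median distance of 38 nt, with quartiles of 26.8 and 55 nt, and 28.0% of them lay 21 to 30 nt from the end, where the TTP-AA lists had 8.38% at 0 h and 3.28% at 1 h. In the TTP list at 4 h, 0 of 47 end sites lay within 40 nt of the end. The shift was seen within genes. Of 39 genes with end cDNAs in the TTP-AA lists at both 1 h and 4 h, the median cDNA lay nearer to the end at 4 h in 34 and farther in 4, with a median change of -18 nt. Of the 11 genes with at least 5 end cDNAs in both, it lay nearer in all 11, with a median change of -28 nt. Between 1 h and 0 h, the median change of 221 genes was smaller, -3.5 nt, with 148 nearer and 62 farther at 0 h. The TTP-AA 4 h list held 245 end cDNAs from 2 libraries, of which 40.8% came from 5 genes.

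Relative to the poly(A) signal, searched 10 to 40 nt before the end, most end sites were upstream. With the signal searched there, most of the window that defines end sites lies upstream of it. A high upstream share therefore follows in part from the way the window and the search were set. The share expected from the distances to the end alone was not computed, so a preference for the upstream side was not tested. With TTP-AA after 1 h, 98.7% of the 7681 end sites whose 3′UTR had a signal there lay before its first base, with a median of 39 nt, and 1.05% lay inside the hexamer. In the TTP list 99.3% of 572 lay upstream, with a median of 42 nt. With TTP-AA after 4 h, 75.8% of 132 sites lay upstream, 20.5% lay inside the hexamer and 3.79% lay downstream, with a median of 14.5 nt before its first base. The sequences around the top end sites of 3 of the 5 leading genes of that list follow. Only that of Tmsb4x holds AAUAAA or AUUAAA, and other hexamers were not searched. Those of Ccl4 and Socs3 are not shown.
Gnb2, TTP-AA 4 h, chr5:137528137-137528166, minus strand: uuuucaguuuuuccauaaaggaaccacuuc
Tmsb4x, TTP-AA 4 h, chrX:167207100-167207129, minus strand: aauuuuuuuaauaugcaAAUAAAguuuuaa
Tnf, TTP-AA 4 h, chr17:35199424-35199453, minus strand: ugaaccucugcuccccacgggagccgugac
The Tmsb4x site lay 22 nt from the end, just before AAUAAA, and the Gnb2 site lay 25 nt from it. Gnb2 has further annotated ends close upstream of the one used. The Tnf site, 58 nt from the end, lay in a GC-rich stretch with no AUUUA and no poly(A) signal.

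AUUUA was then counted within 20 nt of the end sites. For TTP the shares at 0, 1 and 4 h were 45.2% (interval 41.3 to 49.1), 46.0% (42.3 to 49.7) and 68.1% (53.8 to 79.6). For TTP-AA they were 32.6% (29.9 to 35.3), 34.3% (33.3 to 35.2) and 25% (19 to 32.2). All 6 values exceeded the share over all positions of the same 100-nt windows, which was between 16.2% and 26.2%. They also exceeded the share at the same distances from the end in 16574 3′UTRs of at least 300 nt, 1 per gene, which was between 9.15% and 10.2%. End sites thus lay near AUUUA more often than their own surroundings did, but 53.1% of the TTP-AA end sites and 46.4% of the TTP end sites at 1 h had neither AUUUA nor a poly(A) signal within 20 nt. The full nonamer UUAUUUAUU was near 9.49% of the TTP and 4.26% of the TTP-AA end sites at 1 h.

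The wild-type protein had the larger AUUUA share at its end sites at each time point. At the other sites of 3′UTRs of at least 300 nt the share was also larger with TTP. There it was 45.5% against 34.4% at 0 h, 36.7% against 35.1% at 1 h and 38.7% against 32.6% at 4 h. The difference at end sites, TTP-AA minus TTP, was -12.6 percentage points (interval -17.4 to -7.84), -11.7 (-15.6 to -7.90) and -43.1 (-56.1 to -27.1) at 0, 1 and 4 h. With 1 site per gene the intervals at 1 h (-8.13 points, -15.96 to -0.747) and 4 h (-27.5 points, -50.6 to -1.72) still excluded 0, and the one at 0 h (-8.02 points, -17.4 to 1.40) did not. In genes with end sites in both 1 h lists, the difference was -6.13 points (-10.4 to -1.82). In the 4 genes with end sites in both 4 h lists it was 11.1 points in the other direction, with an interval of -19.9 to 32.8.

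Compared with the other sites of 3′UTRs of at least 300 nt, the AUUUA share of end sites depended on the list and on the way of counting. In the TTP list at 1 h the share was 9.26 points higher at end sites than at the other 36.7% (interval 5.35 to 13.2), but with 1 site per gene and region the difference was 5.28 points with an interval of -2.21 to 13.2. In the TTP-AA list at 1 h the difference was -0.818 points (-1.88 to 0.256), and -10.4 (-13.3 to -7.41) with 1 site per gene and region. In the 4 h TTP list it was 29.4 points (14.4 to 41.7), over 47 end sites of which 33 of 54 cDNAs came from 5 genes. A U was the crosslinked base at 60.5% of the TTP-AA and 61.5% of the TTP end sites at 1 h, close to the 62.2% and 64.5% at the other 3′UTR sites, and U made up 37.2% and 36.6% of the bases of the last 100 nt of the same 3′UTRs.

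A poly(A) signal lay within 20 nt of 18.4% of the TTP-AA end sites (17.6 to 19.2) and of 10.5% of the TTP end sites at 1 h (8.43 to 13.0). Both shares were below those over all positions of the same windows, 36.4% and 34.6%, whereas the shares at the same distances in all 3′UTRs were 15.6%, below the TTP-AA interval, and 12.8%, inside the TTP interval. At 0 h the shares were 29.4% (26.9 to 32.1) for TTP-AA and 22.1% (19.0 to 25.6) for TTP, both above the 22.8% and 16.8% at the same distances. At 4 h they were 51.2% (43.6 to 58.8) and 2.13% (0.377 to 11.1), and the TTP-AA value was 56.5% without Tnf and Gnb2. At the same distances the TTP-AA share at 4 h would have been 43.0%, so the observed share was 1.19 times as high, as against 1.18 times at 1 h and 1.29 times at 0 h. For TTP at 4 h the share at the same distances was 7.70%. At other sites of 3′UTRs of at least 300 nt the share was also higher with TTP-AA. There it was 12.5% against 6.77% at 0 h, 7.45% against 3.93% at 1 h and 13.3% against 5.47% at 4 h. At end sites the TTP-AA share was higher than the TTP share at each time, by 7.35 points (3.05 to 11.5), 7.89 points (5.24 to 10.1) and 49.1 points (37.3 to 56.8) at 0, 1 and 4 h. In genes with end sites in both lists, the 0 h difference was 0.582 points (-5.25 to 6.28), the 1 h difference 5.13 (2.26 to 7.66) and the 4 h difference 5.56 (-16.6 to 38.3, in 4 genes). With 1 site per gene the 0 h difference was 7.90 points (-0.688 to 15.9).

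**Figure D3:**
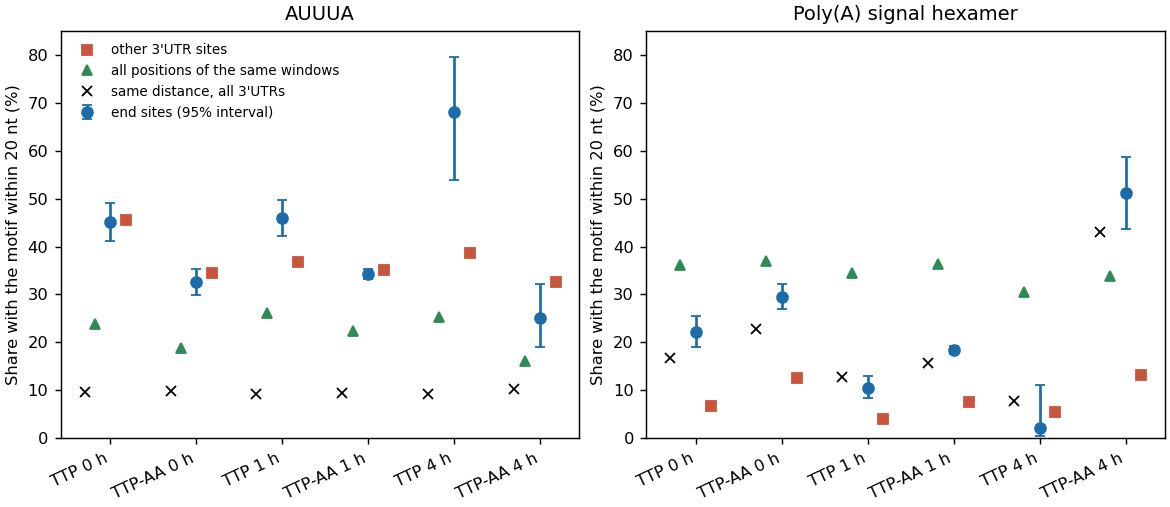
Share of sites with AUUUA (left) or a poly(A) signal hexamer (right) wholly within 20 nt (%, y axis) in the 6 pooled lists (x axis); circles are end sites with Wilson 95% intervals, squares other sites of 3′UTRs of at least 300 nt, triangles all positions of the same last 100 nt, and crosses all 3′UTRs at the same distances. End sites lie above triangles and crosses for AUUUA in each list, and TTP-AA at 4 h stands apart for the poly(A) signal at 51.2%.

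The motif content of the 3′UTR end also differed between genes with and without end sites. AUUUA was present in the last 100 nt of 23.2% of the 16574 3′UTRs and of 42.4% of the 1430 3′UTRs with an end site in any list. The pentamer was searched on the transcribed strand, and it is contained in the nonamer. Over the same sets, UUUUU stood at 31.5% and 51.1%, the poly(A) signal at 78.2% and 90%, and UGUGU at 21.05% and 22.9%. The first set holds bound and unbound 3′UTRs alike, and no comparison here was matched for cDNAs per gene. Among the genes bound by TTP-AA after 1 h, 25.6% of the 2935 genes without AUUUA in the last 100 nt had an end site (24 to 27.2), 47.3% of the 919 genes with 1 AUUUA (44.1 to 50.6) and 61.6% of the 229 genes with 2 or more (55.1 to 67.6). The TTP list at 1 h showed the same order, with 9.63% of 883 genes (7.85 to 11.8), 23.7% of 270 (19.0 to 29.1) and 31.9% of 72 (22.3 to 43.4). The difference between genes with and without AUUUA in the last 100 nt was 24.6 points for TTP-AA (21.3 to 27.9) and 15.8 for TTP (11 to 21). It was 14 points in the TTP-AA list at 4 h, with an interval of -0.294 to 28.8.

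The 5 genes with most end cDNAs were named in each list. In the TTP-AA list at 1 h these were Cxcl2 (494 end cDNAs), a chemokine that attracts neutrophils, Nfkbia (454), the NF-κB inhibitor IκBα, Cxcl10 (409), an interferon-inducible chemokine for T cells, Plau (355), the urokinase plasminogen activator, and Mdm2 (328), the ubiquitin ligase of p53. They held 14.2% of the 14366 end cDNAs. In the TTP list at 1 h they were Cxcl2 (63), Nckap5l (49), Mdm2 (33), Nfkbia (29) and Ogdh (27), a subunit of the 2-oxoglutarate dehydrogenase complex, with 23.3% of the 863 end cDNAs. At 0 h, the TTP-AA list was led by Tmsb4x (58), the actin-sequestering thymosin β4, Mdm2 (31), the cold shock domain protein gene Ybx3 (24), Gnb2 (23), a G protein β subunit, and Larp1 (21), a regulator of the translation of ribosomal protein mRNAs. The TTP list at 0 h was led by Nckap5l (33), Ybx3 (30), Mdm2 (24), Spp1 (24), the secreted phosphoprotein osteopontin, and Nfkbia (15). At 4 h, Tnf (46), Gnb2 (21), Ccl4 (12), Tmsb4x (12) and Socs3 (9) led the TTP-AA list, and Entr1, Itga5, Nckap5l and Ybx3 with 7 cDNAs each and Ogdh with 5 led the TTP list. Only Entr1 and Ybx3 had end sites in all 6 lists.

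The chemokine genes differed in how much of their 3′UTR binding lay at the end. Cxcl2, with a 3′UTR of 1494 nt and 11 AUUUA pentamers, of which 2 lay in the last 100 nt, had 63 end and 195 other 3′UTR cDNAs in the TTP list at 1 h and 494 and 2042 in the TTP-AA list. The end share was 24.4% (19.6 to 30.01) and 19.5% (17.98 to 21.1). Cxcl10 had 13 end and 0 other cDNAs with TTP and 409 and 140 with TTP-AA at 1 h. These end cDNAs belonged to 2 annotated ends, with 329 of the TTP-AA cDNAs before the end of the longest 3′UTR at position 92346805 of chromosome 5 and 80 before the gene's last end at 92346638, so its end share depends on the annotation. Ccl4, a chemokine for monocytes with a 3′UTR of 302 nt, had 12 end and 55 other cDNAs with TTP and 87 and 799 with TTP-AA at 1 h. Ccl3, which had 264 sites in its 3′UTR over the 6 lists, had none at the end. Of the 22 cytokine and chemokine genes, 12 were bound in the TTP-AA list at 1 h and 8 of these had end sites, where 32.5% of all bound genes did, and the end held 16.1% of the list's 3′UTR cDNAs against 16.6% over all genes.

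Tnf, the gene of tumour necrosis factor, was bound mainly outside the end at 1 h. Its 3′UTR of 764 nt has 8 AUUUA pentamers, none of them in the last 100 nt. At 1 h it had 2 end and 725 other cDNAs in the TTP list and 21 end and 1652 other cDNAs in the TTP-AA list, an end share of 1.26% (0.822 to 1.91) for TTP-AA. At 4 h the TTP list had 0 end and 35 other cDNAs, whereas the TTP-AA list had 46 end and 31 other cDNAs, an end share of 59.7% (48.6 to 69.98). The end cDNAs of the 2 TTP-AA lists also lay at different positions, with a median of 99 nt from the end at 1 h and 42.5 nt at 4 h. At 0 h, Tnf had 0 end and 53 other cDNAs with TTP and none with TTP-AA. For Cxcl2 at 4 h, all 8 TTP-AA cDNAs were end cDNAs, 14 to 27 nt from the end, and the TTP list had none.

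**Figure D4:**
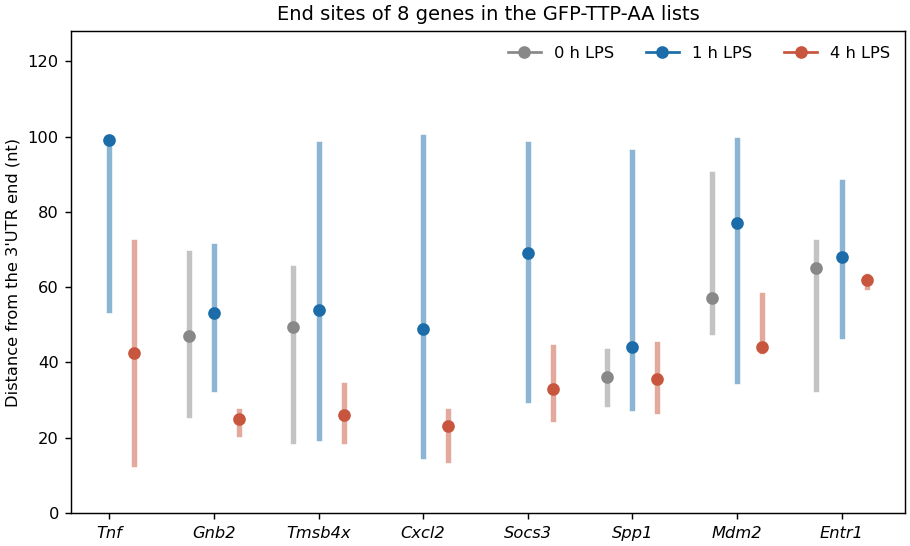
Distance of end sites from the annotated 3′UTR end (nt, y axis) for 8 genes (x axis) in the GFP–TTP-AA lists at 0, 1 and 4 h of LPS; lines span the nearest and farthest site and circles mark the cDNA-weighted median. At 4 h the medians of Tnf, Gnb2, Tmsb4x, Cxcl2 and Socs3 are 42.5, 25, 26, 23 and 33 nt, each below the 1 h median of the same gene.

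Among the feedback inhibitors of LPS signalling, Nfkbia and Socs3 were bound mostly at the end in the TTP-AA list at 1 h. Nfkbia had 15 end and 0 other cDNAs at 0 h and 29 end and 30 other cDNAs at 1 h in the TTP lists, and 5 and 0 and then 454 and 208 in the TTP-AA lists, with none at 4 h in either. Its end held 68.6% (64.9 to 72) of the TTP-AA cDNAs at 1 h. Socs3, the suppressor of cytokine signalling, had 105 end and 0 other cDNAs in the TTP-AA list at 1 h, 9 and 0 at 4 h, and 5 end cDNAs in the TTP list at 1 h. Tnfaip3, the ubiquitin-editing enzyme A20, had 95 end and 569 other cDNAs with TTP-AA at 1 h and 3 and 52 with TTP. Dusp1, a phosphatase of p38, had 66 end and 148 other cDNAs with TTP-AA and 8 and 62 with TTP. Of the 17 feedback inhibitors, 12 were bound and 8 of these had end sites in the TTP-AA list at 1 h, where 32.5% of all bound genes did, and the end held 32.2% of the list's 3′UTR cDNAs against 16.6% over all genes. Without Nfkbia, a setting chosen after seeing the data, it held 18.7%. With TTP-AA at 0 h the end held 15.2% of the cDNAs of the list, with 2 bound genes, against 27.9% over all genes.

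Nlrp3, the inflammasome sensor, had 299 end and 206 other cDNAs with TTP-AA and 15 and 16 with TTP at 1 h, and none at 0 h or 4 h. Of its 5 AUUUA pentamers, 3 lay in the last 100 nt. Plau had 355 and 120 with TTP-AA and 21 and 8 with TTP at 1 h. In both genes the end held more than the remaining 3′UTR in the TTP-AA list. Of the immediate-early transcription factors, Junb led with 133 end cDNAs with TTP-AA and 11 with TTP, followed by Maff and Klf6 with 67 and 45 with TTP-AA. Of the 12 bound genes of this list, 9 had end sites in the TTP-AA list at 1 h, against 32.5% of all bound genes, a count not matched for cDNAs per gene. The end held 28.35% of their 3′UTR cDNAs against 16.6% over all genes, and Junb gave 133 of the 317 end cDNAs.

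A group of genes that are not cytokines was bound at the end with and without LPS. Tmsb4x, which has no AUUUA in its 3′UTR of 408 nt, had 7, 11 and 0 end cDNAs with TTP and 58, 196 and 12 with TTP-AA at 0, 1 and 4 h. At 0 h all its 3′UTR cDNAs were end cDNAs in both lists. Gnb2, also without AUUUA, had 5, 0 and 0 end cDNAs with TTP and 23, 41 and 21 with TTP-AA, and no other 3′UTR cDNA in any list. Entr1, an endosomal trafficking regulator, had 3, 15 and 7 with TTP and 10, 82 and 3 with TTP-AA and likewise none elsewhere in its 3′UTR. Actb, the β-actin gene, was bound mainly upstream, with 59 end and 1057 other cDNAs with TTP-AA and 19 and 292 with TTP at 1 h. Of the 22 genes of the actin and cytoskeleton list, 11 of 16 bound genes had end sites with TTP-AA at 1 h, against 32.5% of all bound genes, led by Tmsb4x, the plastin gene Lcp1 with 70, and Actb. The end held 16.4% of the cDNAs of this list and 16.6% over all genes.

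**Figure D5:**
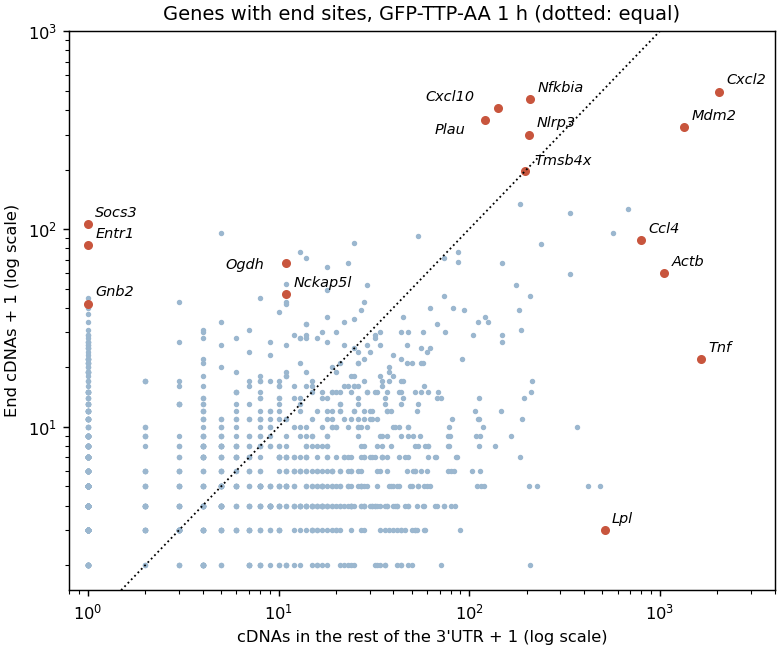
End cDNAs (y axis) against cDNAs in the rest of the 3′UTR (x axis) for the 1326 genes with end sites in the GFP–TTP-AA list at 1 h, both plus 1 on log scales; each point is 1 gene and the dotted line marks equal counts. Socs3, Entr1 and Gnb2 lie at the left edge with no cDNA outside the end, and Tnf and Lpl lie at the lower right.

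End shares differed widely between genes. Of 321 genes with at least 50 cDNAs in such 3′UTRs of the TTP-AA list at 1 h, 131 (40.8%) had no end cDNA, and in 26 (8.10%) more than 50% of the cDNAs lay at the end. The median end share was 4.63%, with quartiles of 0 and 20.3%. Entr1 and Socs3 stood at 100%, Pdgfb, a platelet-derived growth factor subunit, at 95.9% with 94 end and 4 other cDNAs, and Ogdh at 86.8%. Both Tnf and Lpl, the lipoprotein lipase gene, had less than 2% at the end. Of the 27 genes that the study had listed as targets, 19 had an end site in at least 1 list. Of the other 8, the 3′UTRs of Ccl2, Gdf15, Pfn1 and Tnfsf9 were shorter than 300 nt, and Ccl3, Icam1, Ier3 and Lars2 had sites but none at the end. With TTP-AA after 1 h, 19 of the 23 bound genes among them had end sites, against 32.5% of all bound genes, and the end held 19.3% of their 3′UTR cDNAs against 16.6%. With TTP at 1 h it held 9.64% against 9.69%. That list was chosen on these libraries and is not independent evidence.

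At 1 h, end cDNAs numbered 14366 with TTP-AA and 863 with TTP, a ratio of 16.6 (15.5 to 17.8). This is 8.24% of all cDNAs of the TTP-AA list and 0.869% of those of the TTP list. Per gene, the share of a list's end cDNAs was compared for 356 genes with at least 10 end cDNAs over both lists, without a test, since each condition had 1 pooled list. The list divided by was set to at least 3 cDNAs. A gene was at least 2-fold higher in the TTP share in 79 of the 356 genes (22.2%), and in 0 (0%) in the TTP-AA share. With cDNAs scaled to the whole list in place of end cDNAs, the split turned to 0 and 294. Of the 356 genes, 233 had no end cDNA in the TTP list, and a gene needed at least 100 TTP-AA cDNAs, which 11 genes had, to be counted as higher in TTP-AA against 3 TTP cDNAs. Of the 79 genes, 59 had 5 TTP cDNAs or fewer, 14 of them only 2, and the counting interval lay above 1 in 53 and above 2 in 17.

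The largest fold was that of Nckap5l, a gene for a centrosomal microtubule protein. With TTP it had 33, 49 and 7 end cDNAs at 0, 1 and 4 h, and with TTP-AA 20, 46 and 0. At 1 h its share of end cDNAs was 5.68% with TTP and 0.320% with TTP-AA, 17.7-fold higher with TTP (11.9 to 26.5). Its counts in the 1 h lists were thus nearly equal, whereas the lists differed 16.6-fold in end cDNAs. Next came Tnfrsf12a, the receptor of the cytokine TWEAK, with 5 and 8 cDNAs (10.4-fold, 3.58 to 30.2), Snx15, a sorting nexin, with 6 and 10 (9.99-fold, 3.77 to 26.4), Pmpca, a subunit of the mitochondrial processing peptidase, with 6 and 11 (9.08-fold, 3.49 to 23.7), and Alg10b with 4 and 8 (8.32-fold, 2.67 to 26). In the other direction, the largest folds were those of Tnfaip3 with 3 TTP and 95 TTP-AA cDNAs (1.90-fold), Cxcl10 with 13 and 409 (1.89-fold), Pdgfb with 0 and 94 (at least 1.88-fold, against 3 cDNAs), Tnfaip2 with 3 and 84 (1.68-fold) and Plk2 with 3 and 83 (1.66-fold). None of them reached 2-fold.

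The share of wild-type end sites that lay near a mutant end site differed between times. At 1 h, 627 of 685 TTP end sites (91.5%, 89.2 to 93.4) had a TTP-AA end site within 15 nt, whereas 73.6% (72.5 to 74.7) of the remaining TTP sites of these 3′UTRs had any TTP-AA 3′UTR neighbour at that distance. Conversely, 1949 of 8991 TTP-AA end sites (21.7%) had a TTP end site that near. At the same nucleotide, 62.5% of the TTP end sites coincided. At 0 h, 56.96% (53.0 to 60.8) of the TTP and 38.2% of the TTP-AA end sites had a partner, and at 4 h 29.8% (18.7 to 44.0) of the TTP and 5.49% of the TTP-AA end sites. Of the remaining TTP sites, 35.1% at 0 h and 31.5% (27.4 to 35.9) at 4 h had a TTP-AA neighbour, so that end sites exceeded them at 0 h and 1 h and not at 4 h. These shares were not set against a level expected from the density of TTP-AA sites. At 1 h that density was 21.8 sites per kb in the last 100 nt and 5.80 per kb in the rest of the bound 3′UTRs. TTP-AA end sites numbered 1158, 8991 and 164 at 0, 1 and 4 h. Of the 172 genes with TTP end sites at 1 h, 151 (87.8%) had TTP-AA end sites, and 4 of 17 (23.5%) did so at 4 h. Between times, 83.7% (81.4 to 85.7) of the TTP-AA end sites at 0 h and 73.2% (65.9 to 79.4) of those at 4 h lay near a TTP-AA end site of 1 h.

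The lists came from 8052 to 86497 sites and 19167 to 174397 cDNAs. Among 10 macrophage marker genes, between 0 and 7 had 3′UTR cDNAs, with 0 to 343 cDNAs in all, and at 4 h all 10 were at 0 in both lists. The 10 markers of T cells, B cells, fibroblasts, epithelium and endothelium, from Cd3e to Pecam1, were at 0 in each list. On the strand of a protein-coding 3′UTR lay 96.8% to 98.9% of the sites that overlapped one on either strand.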

How the data were processed

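GFP-nanobody iCLIP was analysed in 15 samples of TTP-deficient, immortalised mouse macrophages, pooled by the authors into 6 lists. Per the submitters' processing notes, the file headers and the study's methods, the authors mapped reads with Bowtie to GRCm38, annotated them with Ensembl 75, collapsed reads by random barcode and called sites with iCount (FDR 0.05, 100 permutations, 15 nt). The deposited score is a signed whole number, the unique cDNA counts at a significant site, with its sign as the strand. The 1 h headers carry an extra mark for regions taken as a unit, so the 1 h lists may have been called differently from the others. Lists hold significant sites only, and a site at 0 is below the authors' threshold. A cDNA extends downstream from its crosslink, so a site near the 3′UTR end leaves few templated bases. The part of this in the positions was not tested.

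Sites were placed on GENCODE M21 3′UTRs of protein-coding transcripts, the longest at each position. Motifs were searched in the transcript sequence, on the transcribed strand, within 20 nt. Shares have Wilson and differences Newcombe 95% intervals, and those of ratios were converted from the Wilson interval of the matching share. The files analysed here hold 1 pooled list per group and no value per library, so conditions were compared without a test. An even share is the mean of 100 nt divided by the 3′UTR length over sites. In gene folds at 1 h the list divided by was set to at least 3 cDNAs. The members and lists were chosen with earlier results of these data known. Genes were named as the 5 with most end cDNAs per list, the 27 that the study listed, the 5 with the largest fold in each direction at 1 h and the 3 leading members of each gene list. The sequences of the TTP-AA 4 h list, the plotted genes and the genes given for their end share were chosen after their values were seen. Python 3.11.15, numpy 2.4.6, scipy 1.17.1 and matplotlib 3.10.9 were used. The calculations were tested on simulated data. There both 1 h lists were given the same number of sites, so the gene folds were not tested at the unequal depth of the real lists.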

Additional observations from a re-analysis of the deposited data

Results flagged for a closer look

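The difference in end share between TTP-AA and TTP varied with time, and the time points were set against each other directly with intervals that cover counting error only. Unstimulated cells exceeded 1 h cells by 4.85 percentage points (2.71 to 6.98). The 4 h cells exceeded those of 1 h by 11.5 points (7.11 to 15.8). They also exceeded unstimulated cells, by 6.65 points (1.91 to 11.3). Other ways of counting were added after seeing the data. Among genes in both lists the values were 1.93 (-0.939 to 4.78), 11.1 (3.81 to 18.6) and 9.19 (1.45 to 17.1). Without Tnf and Gnb2 they were 4.61 (2.46 to 6.75), 8.90 (4.48 to 13.2) and 4.29 (-0.480 to 8.97). With genes in place of sites they turned to -9.70 (-14.8 to -4.59) and -3.77 (-13.5 to 5.21), with 5.93 (-4.51 to 15.7) for 4 h against 0 h. None of these differences held under every way of counting.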

How the results depend on the processing

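No paired analysis was possible because the libraries of each group were pooled into 1 list and the columns carry no replicate numbers. Leaving out replicates could not be run for the same reason. The difference in end share between TTP-AA and TTP kept its direction and an interval excluding 0 under every alternative for which an interval was computed. No interval was computed for genes with at least 10 3′UTR cDNAs in both lists. Their pooled end shares at 0 h were nearly equal, 17.3% with TTP and 17.5% with TTP-AA. List by list (TTP 0 h, TTP-AA 0 h, TTP 1 h, TTP-AA 1 h, TTP 4 h, TTP-AA 4 h), the end share was 23.7%, 34.6%, 14.2%, 19.6%, 12.9% and 31.8% with the shortest 3′UTR of at least 300 nt. It was 15.2%, 24.6%, 8.32%, 12.8% and, for TTP-AA at 4 h, 18.9% in 3′UTRs of at least 600 nt. Counted over genes it was 23.8%, 32.5%, 14%, 32.5% and, for TTP at 4 h, 13.8%. With summed cDNAs it was 9.69% and 16.6% at 1 h and 6.28% for TTP at 4 h. Without the 5 leading genes, a setting chosen after seeing the data, it was 9.56% and 15.3% for the 1 h lists, and 4.10% and 20.7% for the 4 h lists.

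The ratio of site density at the end to that in the rest, 5.70, 9.27, 2.59, 3.75, 2.43 and 7.94 in the 6 lists, became 3.49, 6.95, 0.972, 1.87, 0.484 and 9.98 when only the last 50 nt were counted, so that the TTP ratios after LPS fell below 1. It was 6.31, 10.3, 2.96 and 4.26 with the shortest 3′UTR at 0 h and 1 h, and 2.30, 4.02 and 1.58 with summed cDNAs for TTP 1 h, TTP-AA 1 h and TTP 4 h. Genes with at least 5 end cDNAs numbered 53, 116, 40, 694, 5 and 12, while 11 genes had at least 2 in the TTP list at 4 h. Overlap at the same nucleotide was 21.8%, 62.5% and 4.26% of TTP end sites at 0, 1 and 4 h. The AUUUA difference between end and other sites at 1 h in the TTP list was 5.28 points with 1 site per gene and region and 1.90 with at least 2 cDNAs, with intervals including 0. In the TTP-AA list it was -10.4 points with 1 site per gene and region and -1.47 without the 5 leading genes, both excluding 0, and turned to 0.255 with the motif within 50 nt and 0.160 with at least 2 cDNAs, both including 0. With AAUAAA only, the poly(A) signal share at 1 h was 8.18% for TTP and 11.5% for TTP-AA. Genes at least 2-fold apart at 1 h numbered 79, 294 in the opposite direction with whole-list scaling and 38 with at least 20 end cDNAs. The cause of these changes was not tested. At 4 h the TTP list held 47 end sites, which limits every comparison with it.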

Other observations

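Among genes of the 3′ end machinery and of mRNA decay, the share with end sites was near that of all bound genes or rested on few genes. Cstf2, a subunit of the cleavage stimulation factor, had 28 end and 0 other cDNAs of its 3′UTR with TTP-AA at 1 h and 6 and 0 with TTP, and Cstf3 had 27 and 5 against 4 and 0. Of the 12 bound genes of the cleavage and polyadenylation list, 5 had end sites in the TTP-AA list at 1 h (41.7%), where 32.5% of all bound genes did. In the deadenylation and decay list 4 of 12 bound genes had end sites (33.3%), and 0 of 4 with TTP at 1 h, led by Cnot6, a CCR4–NOT catalytic subunit, with 15 end and 6 other cDNAs, followed by Cnot8 with 6 and 0. In the lysosome and phagosome list 6 of 14 did (42.9%), led by Atp6v1a, a subunit of the proton pump, with 28 end and 147 other cDNAs, while the TTP list had none among 7 bound genes, where 14% of all bound genes had one.

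UUUUU lay within 20 nt of 34.7% of the TTP-AA and 34.0% of the TTP end sites at 1 h, above the 25.6% and 25.2% over all positions of the same windows. Set against other sites of 3′UTRs of at least 300 nt, the UUUUU difference at 1 h was -4.56 points (-8.24 to -0.719) for TTP and -0.731 (-1.80 to 0.346) for TTP-AA. At 0 h it was -9.01 (-13.2 to -4.69) and -5.92 (-9.29 to -2.52). At 4 h it was -0.908 (-13.25 to 13.9) for TTP and 11.6 (3.15 to 20.2) for TTP-AA. The GU-rich pentamer UGUGU was near 9.38% and 10.8%, against 8.73% and 9.26% over the same windows. At 0 h UGUGU was near 5.44% of the TTP-AA and 4.09% of the TTP end sites, below the 8.07% and 8.19% at other sites of 3′UTRs of at least 300 nt, and the intervals of both differences excluded 0.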
